A study of Homo sapiens with 4 samples.

Results

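Short circular RNAs (circRNAs) were defined as circles whose ends lay less than 1000 bases apart in the genome. Of 7587 circRNAs with at least some back-splice reads in AGS cells, 1318 (17.4%) met this rule. They came from 1135 of the 3532 host genes with any circle (32.1%) and held 83311 of 309689 back-splice reads (26.9%). Another 563 circles of this span were listed with no read in any library and were not counted as members. The distance between the ends, called the span here, ran from 162 to 999 bases, with a median of 501 and quartiles of 340 and 722. The limit fell in a continuous range of spans. Just inside it, the circles of CPSF7 and ZNF92 with a span of 999 bases had 15 and 12 reads over the 4 libraries, and just outside it those of EXOC5 and NEURL4 with a span of 1001 had 26 and 27.

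The study asked whether the RNA helicase DDX5 alters circRNAs in gastric cancer cells. AGS is an established line of human gastric adenocarcinoma cells. The DDX5 group was AGS cells transfected with FLAG-DDX5 and labelled DDX5 OE, and the NC group was AGS cells given an empty vector with the FLAG tag. Each group had 2 libraries, named DDX5 1, DDX5 2, NC 1 and NC 2, which the study's methods call biological replicates. In all 4 libraries ribosomal RNA was removed and linear RNA was digested with RNase R before sequencing, so both groups describe RNA that resists this enzyme. A transfected population holds cells that took up different amounts of plasmid, and the DDX5 level of each library cannot be checked here, because no circle of DDX5 itself was listed.

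A circRNA forms when the spliceosome joins a downstream splice donor to an upstream splice acceptor, a step called back-splicing. The joined ends give a sequence that the linear transcript does not contain, and reads across this back-splice junction identify the circle. Circles have no free end, so exonucleases degrade them slowly. Many are built from a few internal exons of protein-coding genes, and circles of 1 exon are often made from an exon that is longer than usual with long introns around it. Complementary sequences in the flanking introns can bring the splice sites together, and RNA helicases of the DEAD-box family, to which DDX5 belongs, can unwind paired RNA.

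The sequence at a junction is the part that tells a circle from its linear transcript. The following junctions belong to the short circles on which the read depth and the DDX5 comparison turned. Each shows the last 25 bases of the circle's final exon in lower case, joined to the first 25 bases of its first exon in capitals. They were read from GENCODE 29 transcripts on GRCh38, and all lie within coding exons.
CDYL exon 2: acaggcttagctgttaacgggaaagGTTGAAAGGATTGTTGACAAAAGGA
GCN1 exons 29 to 31: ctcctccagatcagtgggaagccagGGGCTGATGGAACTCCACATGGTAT
KANK2 exons 5 to 6: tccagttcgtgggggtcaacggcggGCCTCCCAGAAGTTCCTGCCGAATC
SCNM1 exons 3 to 5: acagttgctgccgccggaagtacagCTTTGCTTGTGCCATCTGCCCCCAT
WDR83 exons 8 to 10: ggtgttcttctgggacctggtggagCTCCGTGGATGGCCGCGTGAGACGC
CRKL exon 2: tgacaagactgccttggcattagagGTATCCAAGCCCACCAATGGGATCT

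Circles of this size fit in a few lines, so 3 with a span under 300 bases are shown whole. Each is a single coding exon, and the 10 bases at either end, which meet at the junction, are in capitals.
DHX34 exon 6 (218 nt, 64.2% GC): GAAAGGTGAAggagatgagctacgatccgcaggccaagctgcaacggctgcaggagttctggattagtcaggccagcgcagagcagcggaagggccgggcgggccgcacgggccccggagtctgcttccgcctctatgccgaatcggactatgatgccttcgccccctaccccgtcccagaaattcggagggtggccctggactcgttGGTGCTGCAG
GSE1 exon 2 (219 nt, 71.2% GC): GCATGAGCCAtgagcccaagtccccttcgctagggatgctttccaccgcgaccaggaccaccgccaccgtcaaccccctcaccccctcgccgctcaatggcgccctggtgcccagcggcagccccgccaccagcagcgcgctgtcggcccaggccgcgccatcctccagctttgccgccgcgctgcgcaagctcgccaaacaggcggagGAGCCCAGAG
HABP4 exon 2 (163 nt, 55.8% GC): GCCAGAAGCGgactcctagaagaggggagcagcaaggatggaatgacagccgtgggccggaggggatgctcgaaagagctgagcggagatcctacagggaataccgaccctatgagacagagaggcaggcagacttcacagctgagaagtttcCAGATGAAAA
HABP4, which encodes a hyaluronan- and mRNA-binding protein, gave a circle with the smallest span among those with reads, 162 bases. Its counts were 22 and 0 reads in DDX5 1 and 2, against 21 and 22 in NC 1 and 2. Without introns, short circles of 2 or more exons reached lengths down to 76 nt.

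The deposited coordinates are given below as the files state them. The submitters' processing notes name hg38, yet only 86 of 11760 circle starts equalled an exon start of the host gene on GRCh38. Exons were therefore assigned by the span, which had to match the distance between 2 exon edges of the host gene. This placed 1288 of 1318 short circles (97.7%). When the span was shifted by 1 base in either direction, only 48 and 59 of the 1318 circles matched any pair of exon edges, against 1299 at the true span.

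Short circles were mostly built from 1 or 2 exons. Of the 1288 placed circles, 478 (37.1%) held 1 exon, 689 (53.5%) held 2, 107 (8.31%) held 3 and 14 held 4 or 5. The spliced circle, without introns, had a median length of 285.5 nt, with quartiles of 239 and 357 nt. Single exons made up 90.4% of placed circles with a span under 300 bases, 32.2% between 300 and 499, 24.6% between 500 and 749, and 13.1% between 750 and 999. Among longer circles, 0.71% held 1 exon and the median spliced length was 411 nt. The span limit itself favours few exons, so the number of exons describes the class and was not tested. Coding sequence alone made up 1096 of the placed short circles (85.1%), a further 174 (13.5%) held coding and untranslated sequence, and 7 held untranslated sequence only.

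**Figure D1:**
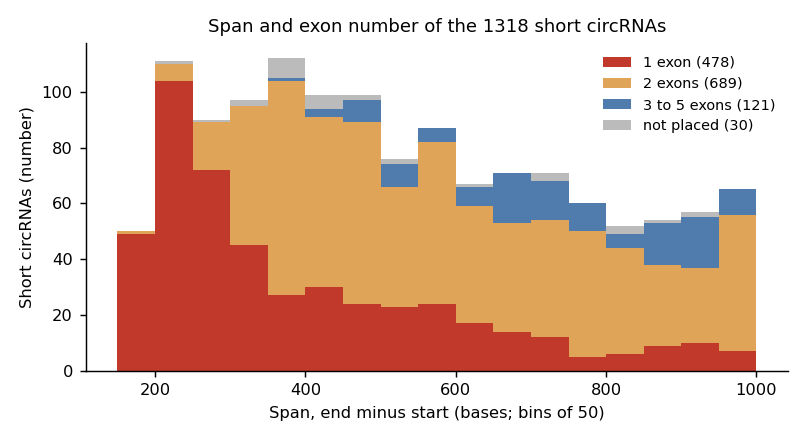
Number of short circRNAs (vertical axis) in bins of 50 bases of span (horizontal axis), coloured by the number of exons in the circle. The 478 circles of 1 exon dominate under 300 bases, while the 689 circles of 2 exons are spread up to the limit of 1000 bases.

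The exon of a single-exon circle differed from its neighbours in the same transcript. In 450 transcripts, 477 internal exons that formed a short circle had a median length of 312 bases, against 135 bases for 5640 other internal exons. The introns on either side were also longer, with medians of 7132 bases upstream and 6639 bases downstream, against 1895.5 and 1744.5 bases for the other internal exons. These values describe the annotation of the chosen exons and carry no test. Circles of 2 or more exons lay between shorter introns, with medians of 2600 bases upstream and 2377 bases downstream. Exon 2 of the transcript was the first exon in 36.8% of single-exon circles and in 12.8% of the circles with more exons.

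Short circles were richer in G and C than longer circles, and this held in each of the 4 libraries. Median GC content of the short circles detected was 52.6% and 52.7% in DDX5 1 and 2, and 52.9% and 52.6% in NC 1 and 2. Longer circles had 46.9% and 46.6% in DDX5 1 and 2, and 46.6% in both NC libraries. The difference averaged 5.996 percentage points and ran from 5.67 to 6.23. An exact paired permutation test over the 4 libraries gave p = 1/8, the smallest p that 4 libraries allow. The introns next to short circles were shorter, with a mean difference of -3726 bases upstream (range -4258 to -3361.5) and -2962.9 bases downstream (range -3262 to -2804), each in 4 of 4 libraries and at the same p = 1/8 (exact paired permutation test). Over all libraries the medians were 3562 bases upstream and 3191 bases downstream for short circles, against 6825 and 5594 bases for longer ones. The shorter introns belonged to short circles of 2 or more exons, since those of single-exon circles, at 7168.5 and 6639 bases, were no shorter than those of longer circles. Including read depth and repeat detection, 7 measures were compared in this way, and each had the same p before and after Benjamini-Hochberg adjustment. The libraries share many circles, so they are not independent draws of sequence.

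Chromosome 19, which is dense in genes and rich in G and C, held 185 short circles (14.0%) and 283 longer circles (4.51%). Its share among detected short circles was higher than among longer ones by 11.5 percentage points on average (range 10.2 to 12.1, 4 of 4 libraries, exact paired permutation p = 1/8). Without chromosome 19, the median GC content was 50.4% for short circles and 46.3% for longer ones, so a gap remained on the other chromosomes. Short circles of chromosome 19 had a median of 27 reads over the 4 libraries, against 15 for those of other chromosomes. Chromosome 19 gave 20.6% and 22.0% of the short-circle reads in DDX5 1 and 2, and 21.9% and 21.0% in NC 1 and 2. These shares overlapped between the groups (exact permutation p = 1).

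**Figure D2:**
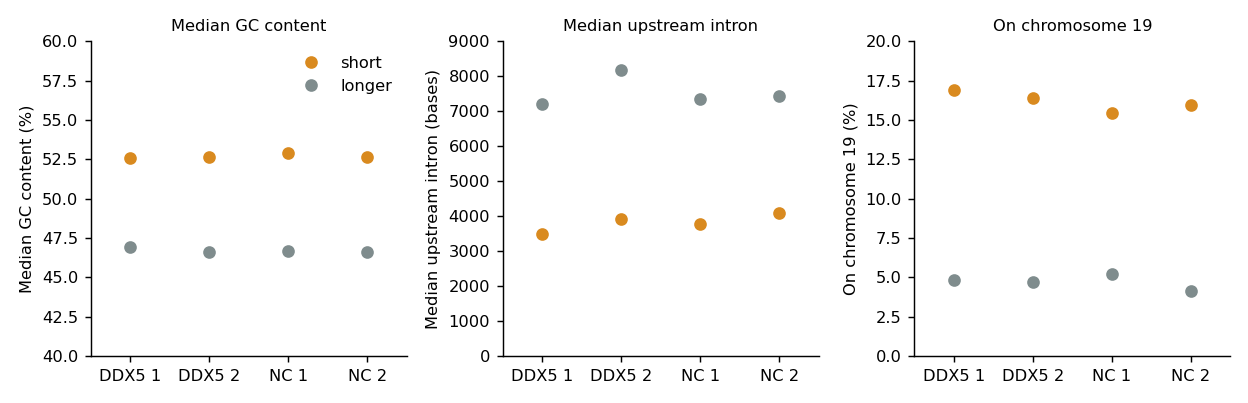
Median GC content in % (left), median length of the upstream intron in bases (middle) and share of circles on chromosome 19 in % (right), for short (orange) and longer (grey) circRNAs detected in each of the 4 libraries on the horizontal axis. Each point is 1 library; the GC axis starts at 40%. Short circles are higher in GC content and chromosome 19 share and lower in intron length in each library.

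In each library the median read count was higher for short circles than for longer ones. Detected short circles had a median of 14 and 15 reads in DDX5 1 and 2, and 13 and 15 in NC 1 and 2. Longer circles had 11 and 12 in DDX5 1 and 2, and 11 and 12 in NC 1 and 2. The difference averaged 2.75 reads (SD 0.50, higher in 4 of 4 libraries, exact paired permutation p = 1/8). A back-splice read counts 1 junction per circle, so these reads need no division by length, although a read or fragment can wrap around a very small circle. Depth was not even along the span range. Circles with a span of 300 to 499 bases had a median of 24 reads over the 4 libraries, against 12 under 300 bases and 16 in both classes from 500 to 999 bases. Longer circles also had a median of 12 over the 4 libraries, so the class under 300 bases was not deeper than them. No circle in the listing, with or without reads, spanned fewer than 135 bases, and no library had a count of 1, since the smallest count above 0 was 2.

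Reads were concentrated in few short circles. The circle with most reads took 4.72% of all short-circle reads, the first 10 took 20.2% and the first 100 took 57.4%. The same ranks among longer circles took 1.74%, 7.80% and 25.2%. At the other end, 424 short circles with 2 to 9 reads in all held 2.89% of the reads. The 28 short circles with 500 or more reads had a median GC content of 56.5%, and 27 of them were found in all 4 libraries.

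The most abundant short circle was exon 2 of CDYL (chr6:4891947-4892613), whose host encodes a chromodomain protein that acts as a transcriptional corepressor. It had 1020 and 875 reads in DDX5 1 and 2, against 719 and 1317 in NC 1 and 2. In RPM, reads scaled to a library total of 1000000 back-splice reads, this was 13777.1 ± 1079.2 in DDX5 cells and 11635.1 ± 2558.4 in NC cells (SD, n = 2 each). The NC libraries lay further apart than the group means, and the log2 fold change was 0.13 (SE 0.09, edgeR quasi-likelihood test adjusted p = 0.951). This SE and those below were worked back from the edgeR test statistic and do not measure the spread of a circle's own libraries alone. A circle of GCN1, an activator of the kinase that senses amino acid shortage, came next (exons 29 to 31, chr12:120592774-120593523). It had 518 and 411 reads in DDX5 cells, against 533 and 716 in NC cells. On the RPM scale, where depth is removed, these were 6609.1 and 6829.7 against 7284.1 and 7309.0, so both DDX5 libraries lay below both NC libraries, with a log2 fold change of -0.23 (SE 0.14, edgeR adjusted p = 0.951).

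Other abundant short circles came from hosts with very different roles. Exons 63 to 64 of DYNC1H1, the heavy chain of cytoplasmic dynein, gave 360 and 309 reads in DDX5 1 and 2, against 367 and 460 in NC 1 and 2. Exon 6 of DHX34, an RNA helicase of nonsense-mediated decay, gave 331 and 303 reads in DDX5 cells, against 339 and 365 in NC cells. Exons 11 to 12 of EPHB4, a receptor tyrosine kinase, gave 338 and 261 reads in DDX5 cells, against 294 and 414 in NC cells. Each of these circles had 261 reads or more in every library. Exons 3 to 4 of SDF4, a calcium-binding protein of the Golgi, gave 341 and 275 reads in DDX5 cells, against 309 and 324 in NC cells. Exons 3 to 4 of FKBP8, an immunophilin of the mitochondrial surface, gave 279 and 221 reads in DDX5 cells, against 246 and 293 in NC cells. Exon 2 of CREBBP, a histone acetyltransferase, gave 243 and 185 reads in DDX5 cells, against 248 and 329 in NC cells. The absolute log2 fold change stayed at or under 0.23 for these 6 circles, and none passed the test.

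Beside CDYL, 4 circles known from other cells were looked for, and 3 were members. Exons 15 to 16 of SMARCA5, a chromatin remodelling ATPase, had 117 and 212 reads in DDX5 1 and 2, against 127 and 169 in NC 1 and 2. Exons 2 to 3 of ZKSCAN1, a zinc finger transcription factor whose circle depends on paired Alu repeats, had 135 and 141 reads in DDX5 cells, against 155 and 224 in NC cells. The circle of PVT1, a long non-coding RNA beside MYC, had 387 and 304 reads in DDX5 cells, against 418 and 497 in NC cells, and could not be placed on exons. These 3 circles did not pass the test, with edgeR adjusted p of 0.951, 0.954 and 0.951 for SMARCA5, ZKSCAN1 and PVT1. No circle of ZNF609 was among the short circles.

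Detection across libraries was uneven. Of the 1318 short circles, 630 (47.8%) had reads in 1 library, 260 (19.7%) in 2, 180 (13.7%) in 3 and 248 (18.8%) in all 4. The 248 circles found everywhere held 71.0% of the short-circle reads, and the 630 found once held 6.84%. Longer circles were found once in 57.0% of cases and in all 4 libraries in 12.2%. Short circles with a span under 300 bases were near these values, at 58.2% and 13.9%. Of the short circles detected in DDX5 1 and 2, 52.4% and 66.1% also appeared in the other DDX5 library, and of those in NC 1 and 2, 56.6% and 54.3% also appeared in the other NC library. For longer circles the shares were 41.9% and 54.9% in DDX5 1 and 2, and 52.6% and 44.5% in NC 1 and 2. Short circles were found again more often by 8.91 percentage points (SD 3.27, higher in 4 of 4 libraries, exact paired permutation p = 1/8).

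**Figure D3:**
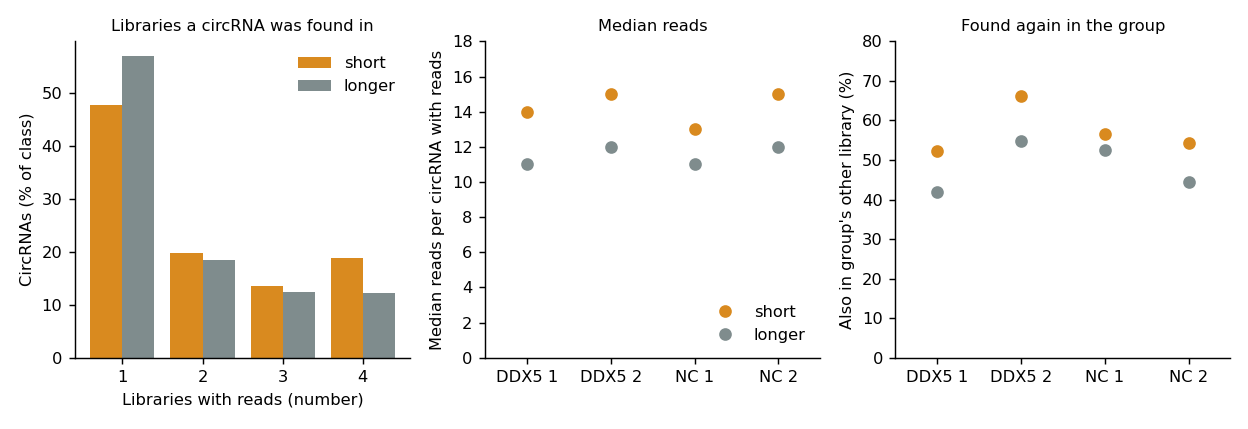
Share of short (orange) and longer (grey) circRNAs in % by the number of libraries with reads (left), median reads per circRNA with reads in each library (middle), and share in % of the circRNAs of a library that also had reads in the other library of its group (right). Short circles were found in all 4 libraries in 18.8% of cases, against 12.2% of longer circles, and lie above longer circles in each library of the other 2 panels.

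An entry of 0 did not always stand beside low counts. Of 1784 occasions on which a short circle had at least 10 reads in a library, 543 (30.4%) had 0 reads in its partner library, the one of the same treatment. For longer circles this was 2485 of 6713 (37.0%). Even with 100 or more reads in all, 32 of 185 short circles (17.3%) were at 0 in at least 1 library, against 74 of 454 longer circles (16.3%). Exon 2 of CRKL, an adaptor of receptor signalling (chr22:21288067-21288532), had 245 and 160 reads in DDX5 1 and 2, against 271 and 0 in NC 1 and 2. CHSY1, a chondroitin synthase, gave a circle with 153 and 85 reads in DDX5 cells, against 148 and 0 in NC cells. A circle of EHD2, an ATPase of caveolae, had 0 and 86 reads in DDX5 cells, against 127 and 82 in NC cells. Such zeros fell in all libraries, with 5 and 10 of the circles with 100 or more reads at 0 in DDX5 1 and 2, and 5 and 13 in NC 1 and 2. The smallest level that 3 reads would give was 38.3 and 49.9 RPM in DDX5 1 and 2, and 41.0 and 30.6 RPM in NC 1 and 2, which covers counting error only. What produced the zeros of abundant circles was not tested.

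Most hosts gave 1 short circle. Of the 1135 hosts, 984 had 1, 128 had 2 and 23 had 3 or more. No longer circle was detected for 521 hosts (45.9%). In the 614 hosts with both kinds, short circles took 43.3% and 47.9% of the back-splice reads in DDX5 1 and 2, and 45.1% and 41.5% in NC 1 and 2. Of the 1318 short circles, 396 (30.0%) lay within a longer circle of the same host, and 388 (29.4%) shared a start or an end with another circle, so these members are not independent of other circles.

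Single hosts gave up to 5 short circles. SRCAP, a chromatin remodelling ATPase that deposits a histone variant, had 5. Its exons 26 to 27 gave 113 and 67 reads in DDX5 cells, against 121 and 143 in NC cells. Exon 4 of SRCAP gave 56 and 54 reads in DDX5 cells, against 64 and 81 in NC cells. The other 3 SRCAP circles had between 13 and 17 reads in all, so 2 junctions carried most of the reads. GCN1 followed the same pattern. It had 4 short circles and no longer one, and the circle of exons 29 to 31 had 2178 reads in all, against 16 to 38 reads for the other 3.

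The share of all back-splice reads in short circles did not separate the groups. It was 26.7% (95% exact binomial interval 26.4 to 27.0) and 29.04% (28.7 to 29.4) in DDX5 1 and 2, and 27.3% (27.0 to 27.6) and 25.5% (25.2 to 25.7) in NC 1 and 2. The intervals cover counting error only and are narrower than the distance between libraries of a group. The mean was 27.9 ± 1.65% in DDX5 cells and 26.4 ± 1.29% in NC cells (SD, n = 2 each), a difference of 1.51 percentage points (exact permutation test, two-sided p = 0.667, where 2 against 2 libraries cannot go below 0.333). The number of short circles detected was 716 and 567 in DDX5 1 and 2, and 685 and 714 in NC 1 and 2, out of 3635 and 2793, and 3493 and 4029 circles of any span. Their share was 19.7% and 20.3% of detected circles in DDX5 1 and 2, and 19.6% and 17.7% in NC 1 and 2. The DDX5 libraries lay above the NC libraries by 1.33 points on average, at the smallest p the design allows (exact permutation p = 0.333). Single-exon circles took 35.8% and 36.5% of the reads of placed short circles in DDX5 1 and 2, and 37.4% and 36.8% in NC 1 and 2 (exact permutation p = 0.333). Over the 6 such comparisons of DDX5 with NC libraries, the smallest Benjamini-Hochberg adjusted p was 0.667.

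For single circles, each circle with at least 10 reads over the 4 libraries was tested by edgeR's quasi-likelihood test, with p-values adjusted over all 4671 circles tested. Of the 1318 short circles, 894 passed this filter and 424 did not. At an adjusted p under 0.05, 2 short circles were higher in DDX5 cells (0.224% of those tested, against 0.0856% of all circles tested) and 0 were lower (against 0% of all circles tested). At an unadjusted p under 0.05, 16 were higher (1.79%, against 1.28% of all) and 13 were lower (1.45%, against 1.37% of all). DESeq2 gave 22 higher and 12 lower at an unadjusted p, and 1 higher and 0 lower after adjustment. The 2 DDX5 libraries both lay above the 2 NC libraries for 116 short circles (12.98%, against 10.8% of all), and both lay below for 110 (12.3%, against 12.5% of all). The shares of short circles thus lay close to those of all circles tested in both directions, apart from the 2 adjusted calls.

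The median log2 fold change of the 894 short circles was -0.14, and that of all 4671 circles was -0.26. With DESeq2 size factors in the edgeR fit, these medians moved to -0.01 and -0.13, and the unadjusted calls split into 20 higher and 8 lower (71.4% higher), compared with 16 and 13 (55.2% higher) with TMM factors. In the 248 short circles found in all 4 libraries the median was -0.07, close to -0.04 in all 1011 such circles of any span. Counts depended on single libraries. The adjusted calls that were higher in DDX5 cells numbered 0 without DDX5 1, 0 without DDX5 2, 13 without NC 1 and 6 without NC 2. The unadjusted calls were 7 higher and 33 lower without DDX5 1, 4 and 15 without DDX5 2, 33 and 10 without NC 1, and 21 and 7 without NC 2.

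**Figure D4:**
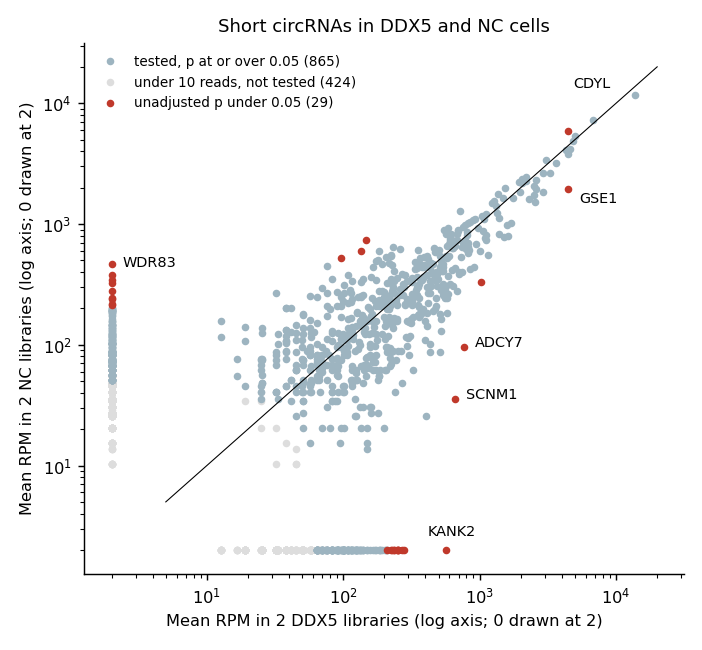
Mean RPM of each of the 1318 short circRNAs in the 2 DDX5 libraries (horizontal) and the 2 NC libraries (vertical), on log axes with a mean of 0 drawn at 2 RPM; the line marks equal levels. Red points have an unadjusted p under 0.05 and grey points under 10 reads. Most called circles lie on the axes, with no read in one of the groups, and abundant circles such as CDYL lie near the line.

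GSE1 and KANK2 gave the circles that passed the adjusted threshold, both higher in DDX5 cells. The circle of GSE1, a coiled-coil protein found with histone deacetylases, is the 219-nt exon 2 printed above (chr16:85667520-85667738). It had 177 and 400 reads in DDX5 1 and 2, against 159 and 169 in NC 1 and 2, which is 2258.3 and 6647.0 RPM against 2172.9 and 1725.2 RPM. DDX5 2 alone stood apart, and DDX5 1 lay close to NC 1. The log2 fold change was 1.05 (SE 0.25, edgeR adjusted p = 0.0426), and without DDX5 2 it was 0.18 (adjusted p = 0.987). Its adjusted p was 0.257 with no filter on low counts, 0.840 by DESeq2 and 0.290 to 0.987 with any 1 library left out.

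KANK2 encodes an adaptor that links talin in focal adhesions to the cell cortex. Its circle of exons 5 to 6 (chr19:11289021-11289396, 271 nt, 67.9% GC) had 29 and 46 reads in DDX5 1 and 2, against 0 and 0 in NC 1 and 2. By counting error alone, it was at least 30.9-fold higher in DDX5 cells, taking 3 reads over both NC libraries as the limit (edgeR adjusted p = 0.0426). That limit does not cover zeros beside high counts, like that of CRKL. The KANK2 circle also passed by DESeq2 (adjusted p = 0.0346). In edgeR it passed with no filter on low counts (0.0264) and with DESeq2 size factors (0.0218), and failed with the replicate number as a block (0.196). The adjusted p was 0.546 without DDX5 1 and 0.958 without DDX5 2. A second short KANK2 circle, of exons 11 to 12, had 8 and 0 reads in DDX5 cells, against 0 and 0 in NC cells, and was not tested. KANK2 was therefore without short-circle reads in either NC library.

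Of the 16 short circles with an unadjusted p under 0.05 that were higher in DDX5 cells, 12 had no read in either NC library, and 2 of the 16 had reads in 1 library only. Within a group, a single partner library was at 0 in 30.4% of the occasions counted above. That share does not give the rate of 0 in both libraries of a group. SCNM1, a protein of the minor spliceosome, gave a circle of exons 3 to 5 with 25 and 60 reads in DDX5 1 and 2, against 0 and 7 in NC 1 and 2 (log2 fold change 3.93, SE 1.30, edgeR adjusted p = 0.883). Exon 2 of ADCY7, an adenylyl cyclase, had 42 and 60 reads in DDX5 cells, against 14 and 0 in NC cells (log2 fold change 2.91, SE 1.03, edgeR adjusted p = 0.951). In both, each DDX5 library lay above each NC library, and neither passed after adjustment. Exon 4 of PLEKHM1, an adaptor for lysosome fusion, had 85 and 58 reads in DDX5 cells, against 48 and 0 in NC cells. Exon 34 of GCN1 had 19 and 19 reads in DDX5 cells, against 0 and 0 in NC cells. By counting error alone, this circle was at least 15.6-fold higher in DDX5 cells (edgeR unadjusted p = 0.0191). Its adjusted p was 0.951, as for the abundant GCN1 circle of exons 29 to 31, so neither passed after adjustment. The adjusted p of SCNM1 was 0.0040 without NC 2, and those of ADCY7 and PLEKHM1 were 0.0013 and 4.0e-05 without NC 1. In each case the library left out held the reads of the NC group.

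Of the 13 lower short circles, 9 had no read in either DDX5 library, and 6 of the 13 had reads in 1 library only. The circle of WDR83 (exons 8 to 10, chr19:12783661-12784130), whose host is a WD-repeat scaffold protein, had 0 and 0 reads in DDX5 1 and 2, against 32 and 49 in NC 1 and 2. By counting error alone, it was at least 21.9-fold lower in DDX5 cells, at an edgeR adjusted p of 0.163.

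The next lower circles had reads in both NC libraries. Exons 13 to 14 of LONP2, a peroxisomal protease, had 0 and 0 reads in DDX5 1 and 2, against 6 and 47 in NC 1 and 2. Exons 4 to 5 of SLCO4A1, an organic anion transporter, had 23 and 0 reads in DDX5 cells, against 59 and 65 in NC cells. Exon 4 of SUPT5H, a transcription elongation factor, had one of the smallest spans, 165 bases. It had 21 and 0 reads in DDX5 cells, against 53 and 46 in NC cells. Each of these 3 circles had a 0 in DDX5 2, the library with the fewest back-splice reads. None passed after adjustment (edgeR adjusted p = 0.951 for each).

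**Figure D5:**
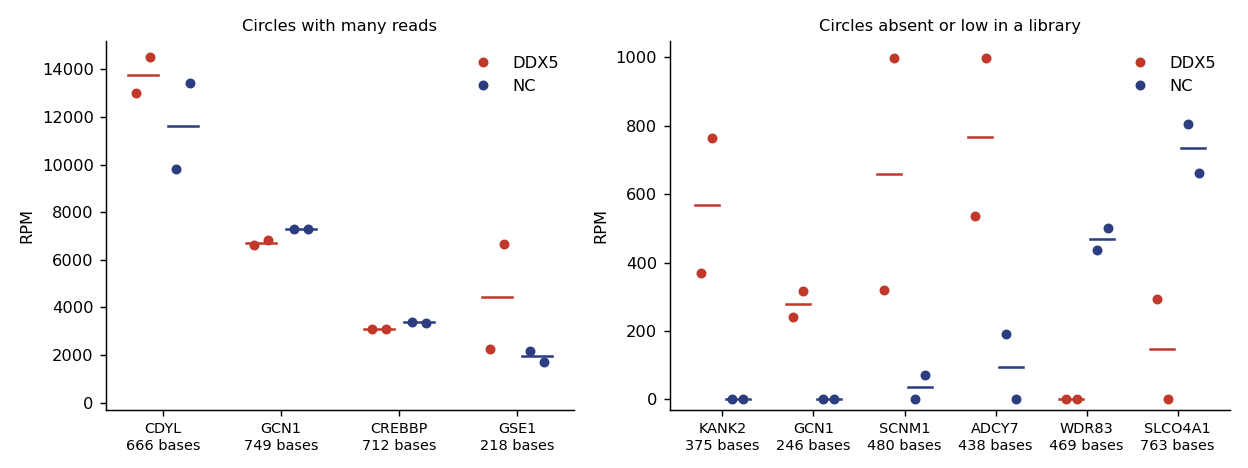
RPM of 4 abundant short circRNAs (left) and of 6 that were absent or low in a library (right), with DDX5 libraries in red and NC libraries in blue; each point is 1 library and each bar the mean of 2, and spans are given under the names. GSE1 is high in DDX5 2 alone, whereas KANK2 and WDR83 have no read in either library of a group.

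Hosts were also read by lists of known function. Chromatin regulators gave most reads. Of 100 such hosts with any circle, 43 had a short one, and their 53 circles took 10.6% of the short-circle reads, CDYL included. Of 37 tested, 1 was higher (GSE1) and 0 were lower at an unadjusted p under 0.05 (against 1.28% and 1.37% of all circles tested). Their median log2 fold change was 0.13, against -0.14 over all short circles tested and -0.26 over all circles tested. Exons 2 to 3 of EZH2, the methyltransferase of Polycomb repressive complex 2, had 245 and 162 reads in DDX5 1 and 2, against 185 and 272 in NC 1 and 2, and did not pass (edgeR adjusted p = 0.9997). Of 78 mRNA processing hosts, 28 had short circles. Of 31 circles tested, 1 was higher (against 1.28% of all circles tested) and 1 was lower (against 1.37%), with a median of -0.10. The higher one was exons 7 to 8 of RBM39, a splicing factor related to U2AF2, with 16 and 18 reads in DDX5 cells, against 0 and 0 in NC cells, and the lower one was WDR83.

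Of 62 hosts on the actin and adhesion list, 27 had short circles, and 3 of 14 circles tested were higher (against 1.28% of all circles tested) and 0 were lower (against 1.37%) at an unadjusted p under 0.05. Besides KANK2, these were exons 42 to 43 of SPTAN1, a spectrin of the membrane skeleton, with 14 and 19 reads in DDX5 1 and 2, against 0 and 0 in NC 1 and 2, and exons 5 to 7 of VASP, an actin polymerase, with 42 and 0 reads in DDX5 cells, against 0 and 0 in NC cells. A second VASP circle, of exons 2 to 3, had 46 and 36 reads in DDX5 cells, against 59 and 55 in NC cells. The VASP circle of exons 5 to 7 thus rested on DDX5 1 alone, and the difference between the 2 VASP circles was not tested. All 3 higher circles had no read in either NC library, so only DDX5 reads brought them past the filter on low counts. The host lists were chosen with earlier results of these data known. Setting 3 of 14 against 1.28% is therefore no test of the actin and adhesion list. The median of the list was 0.04. Ubiquitin ligase hosts gave 36 short circles, of which 20 were tested. At an unadjusted p under 0.05, 1 was higher (against 1.28% of all circles tested) and 0 were lower (against 1.37%). The higher one was exons 54 to 55 of HUWE1, with 11 and 20 reads in DDX5 cells, against 0 and 0 in NC cells. The median log2 fold change of the 20 circles was 0.55, against -0.14 over all short circles tested and -0.26 over all circles tested. The summed level of the ubiquitin list was 1799.0 and 3107.5 RPM in DDX5 cells, against 1284.6 and 2123.3 RPM in NC cells, which overlap. For hosts that make or degrade circRNAs, 8 circles were tested by edgeR. At an unadjusted p under 0.05, 0 passed in either direction, against 1.28% higher and 1.37% lower of all circles tested. Exons 2 to 3 of METTL3, the m6A methyltransferase, had 127 and 94 reads in DDX5 cells, against 72 and 96 in NC cells, and its RPM did not overlap between groups (log2 fold change 0.59, SE 0.46, edgeR adjusted p = 0.951). Over all short circles of this list the summed level was 3368.3 and 4885.5 RPM in DDX5 1 and 2, against 3061.2 and 2674.5 RPM in NC 1 and 2, so both DDX5 libraries lay above both NC libraries. This was not particular to the list. Chromatin regulators had 27941.9 and 34913.1 RPM in DDX5 cells, against 25801.8 and 26867.9 RPM in NC cells. Of this, CDYL gave 13014 and 14540.2 RPM in DDX5 cells, against 9826.0 and 13444.1 RPM in NC cells. GSE1 gave 2258.3 and 6647.0 RPM in DDX5 cells, against 2172.9 and 1725.2 RPM in NC cells. With CDYL and GSE1 taken off, the sums of chromatin regulators overlapped between the groups. The mRNA processing list had 8918.4 and 9039.9 RPM, against 7953.7 and 6257.6 RPM, while the actin and adhesion list overlapped. The median log2 fold change of the list of hosts that make or degrade circRNAs was 0.61. It was -0.14 over all short circles tested and -0.26 over all circles tested.

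Hosts with a numbered ZNF symbol, a large family of zinc finger genes with close paralogs, gave 29 short circles (2.20% of short circles) and 69 longer ones (1.10%). Of 20 tested, 0 were higher (against 1.28% of all circles tested) and 4 were lower (against 1.37%) at an unadjusted p under 0.05. The 4 were noticed after their values were seen. ZNF720 had 55 reads and ZNF430 had 50 reads, each in NC 1 alone, and ZNF680 had 64 reads and ZNF124 had 42 reads, each in NC 2 alone. None had a read in DDX5 1 or 2, and none was repeated in the other NC library. Reads of near-identical paralogs are uncertain where the counting could split them.

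Markers of the labelled cell type were sparse among circle hosts. Of 25 gastric and epithelial markers, 4 hosted any circle and 3 a short one. These were ESRP1, a splicing regulator of epithelial cells, VIL1, a protein of microvilli, and EPCAM, an epithelial adhesion protein. Their short circles summed to 2296.6 and 3173.9 RPM in DDX5 1 and 2, against 1913.3 and 1704.8 RPM in NC 1 and 2, so the groups did not overlap. Taken singly, EPCAM did not overlap between the groups, while VIL1 and ESRP1 did. ESRP1 had 816.6 and 1960.9 RPM in DDX5 cells, against 997.6 and 653.3 RPM in NC cells. Its circle was also on the mRNA processing and circRNA factor lists, so the sums of these lists are not separate observations. The 3 circles had a median log2 fold change of 0.62, that of ESRP1, which was -0.05 without DDX5 2. The median was -0.14 over all short circles tested and -0.26 over all circles tested. Of the 3 circles, 0 passed at an unadjusted p under 0.05 by edgeR, against 1.28% higher and 1.37% lower of all circles tested. Of 17 stromal and immune markers, 0 hosted a circle. The lack of a circle does not show the lack of a transcript, because circle hosting was the only readout.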

How the data were processed

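RNA of AGS cells was sequenced after ribosomal RNA removal and RNase R digestion, from a directional paired-end library. The authors detected circRNAs with CIRCexplorer2 and CIRI2; the submitters' notes also name BWA and hg38. The deposited back-splice read counts are raw, and the deposited RPM values are those counts scaled by the authors to a total of 1000000 back-splice reads per library. Totals were 78377 and 60178 reads in DDX5 1 and 2, and 73173 and 97961 in NC 1 and 2, so 1 read equals 12.8, 16.6, 13.7 and 10.2 RPM. Both files listed 11760 circRNAs. No detection threshold is given in the sources used here.

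Short circRNAs were rows with reads and end minus start under 1000 bases. The members, host lists and tests were chosen with earlier results of these data known. Counts were fitted with edgeR 4.0.16 in R 4.3.3 (glmQLFit, TMM factors, at least 10 reads over the 4 libraries, Benjamini-Hochberg over all 4671 circRNAs); DESeq2 1.42.0 was an alternative. The code was tested on simulated data. Libraries were compared by exact permutation (Python 3.11.15, SciPy 1.17.1). The edgeR p-values rest on 2 libraries per group, with the spread of each circle moderated over all circles tested. The SE of a log2 fold change is its absolute value divided by the square root of the edgeR F statistic, so it rests on the same moderated spread. Permutation p-values rest on the 4 libraries, and no p-value covers more than these libraries. A fold against a group at 0 used 3 reads over that group's libraries, which covers counting error only. Exons, introns and sequences came from GENCODE 29; where several transcripts matched, a protein-coding one was taken, then the APPRIS principal one, CCDS membership and most exons. Host symbols were used as the files give them, and 51 older symbols were matched through RefSeq. Intron sequence was not analysed here, and some circles that the naming rule takes are not reported here. Circles named were the 10 with the highest mean RPM, those passing the adjusted threshold, the 6 smallest p per direction with both DDX5 libraries above or below both NC libraries, the 2 shortest and 2 longest spans with at least 10 reads, the 3 hosts with most short circles, circles known from other cells, and up to 4 per host list. Circles with zeros beside high counts and the ZNF circles were chosen after their values were seen.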

Additional observations from a re-analysis of the deposited data

How the results depend on the processing

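The adjusted calls higher in DDX5 cells numbered 2 in the reported fit, 2 with DESeq2 size factors, 1 with no filter on low counts and 1 with DESeq2, and ran from 0 to 13 with 1 library left out. The adjusted lower calls numbered 0 in these fits and ran from 0 to 2 with 1 library left out. The unadjusted higher calls numbered 14 to 22 under these alternatives and 4 to 33 with 1 library left out. The unadjusted lower calls numbered 8 with DESeq2 size factors, against 13 in the reported fit, and ran from 7 to 33 with 1 library left out. Fits without 1 library leave a lone library in its group, and its spread was taken from the remaining pair. The cause of these shifts was not tested.

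Libraries share only a number: deviations of same-numbered libraries from their group means correlated at 0.0054 over 4671 circles. With the replicate number as a block, the adjusted calls were 3 higher and 0 lower and the unadjusted calls 15 and 9, and GSE1 and KANK2 had adjusted p of 1 and 0.196.

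For 44 named circles that were tested, 300 of 348 alternative fits kept the direction and the side of the threshold. In 10 fits, all of GSE1 and KANK2, a call was lost, in 3 one was gained (SCNM1, ADCY7 and PLEKHM1), and in 35 an uncalled value changed sign.

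The 7 differences of short from longer circles, and the DDX5 minus NC differences in the share of reads and of detected circles, kept their direction with a span limit of 500 bases, with a minimum of 5 reads and without any 1 library. The share of reads differed by 0.34 to 2.67 points and the share detected by 0.39 to 2.28 points. The DDX5 minus NC difference in the chromosome 19 share of short-circle reads (-0.17 points) ran from -0.83 to 0.48 with 1 library left out. That in the share of the 10 circles with most reads (-0.68) ran from -1.69 to 0.33 with 1 library left out and was 0.61 with the limit of 500 bases. The single-exon share kept its direction in these settings. For these measures, GC content, introns, spliced length and chromosome 19 these settings were chosen after seeing the data. Repeat detection needs both libraries of a group, so no library could be left out. With 2 libraries per group and a median of 16 reads per short circle, small changes were not detectable at this depth.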

Other observations

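Few short circles were found in both libraries of 1 group and in neither library of the other. There were 39 short circles (2.96%) in both DDX5 libraries alone and 48 (3.64%) in both NC libraries alone. Among longer circles these numbers were 137 (2.19%) and 260 (4.15%). In DDX5 1 and 2, 165 and 103 short circles were found nowhere else, against 164 and 198 in NC 1 and 2. These were 23.0% and 18.2% of the short circles detected in DDX5 1 and 2, and 23.9% and 27.7% in NC 1 and 2 (exact permutation p = 0.333, the smallest that 2 against 2 libraries allow).

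Short and longer circles were alike in their share of lengths that are a whole number of codons. Among the 1096 placed short circles made only of coding sequence, 38.2% had a spliced length divisible by 3, and longer coding circles also gave 38.2%. The last 2 bases of the final exon were AG in 58.7% of placed short circles and in 56.4% of longer ones, and the first base of the first exon was G in 50.5% and 47.1%. These shares describe the annotated exons and carry no test.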
